A study of Mus musculus with 6 samples.

Results

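The genes described here handle cellular iron. They are Tfrc, Slc11a2 and Steap3, which bring iron into the cell, Fth1, Ftl1 and Ncoa4, which store it and release it from the store, Slc40a1, which exports it, Aco1 and Ireb2, which sense it, and Hmox1, which frees it from heme. These 10 genes were chosen by symbol, for their role in iron handling, from the 44788 genes listed, with earlier results of these data known. All 10 were found in the table, and all 10 passed the filter on low counts that left 19423 genes to test. RNA-seq read counts were examined for 3 ovary samples of wild-type (WT) mice and 3 of Bnc1tr/tr mice. The WT samples were replicates 1, 4 and 7, the Bnc1tr/tr samples were replicates 1, 2 and 3, and each is called an ovary below. Mice of both genotypes were 8 weeks old and of the C57BL/6 J strain, and no ovary was labelled with a treatment. Bnc1 encodes the zinc finger protein basonuclin 1, and Bnc1tr/tr mice are homozygous for a germline deletion that shifts the reading frame, so every cell of the animal carries the mutation and not the ovary alone. The methods of the study speak of littermates, but the labels tie no ovary to a litter and give no batches. Nor do the labels say whether a library came from 1 mouse, so the p values set the genotype difference against the spread between these samples.

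Iron enters most cells bound to transferrin, which is taken up by the transferrin receptor encoded by Tfrc. In the endosome the ferrireductase Steap3 reduces the iron and the transporter encoded by Slc11a2 (DMT1) carries it into the cytosol. There it is used for heme and iron-sulfur clusters, stored in the ferritin shell made of Fth1 and Ftl1 subunits, or exported by ferroportin, the product of Slc40a1. Aco1 and Ireb2 encode the iron regulatory proteins IRP1 and IRP2, which bind a hairpin called the iron-responsive element when iron is scarce. Bound in a 5′ UTR, as in the ferritin mRNAs, they block translation, and bound in the 3′ UTR of Tfrc, they protect the mRNA from decay. Free iron drives the lipid peroxidation of ferroptosis, the form of cell death on which the study of these mice centred, and these comparisons describe the iron genes at the mRNA level in the whole ovary.

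The iron-responsive elements are shown because they tell 5 of the members, both ferritin genes, Slc40a1, Slc11a2 and Tfrc, from the others by sequence alone. They were read from the GENCODE M21 transcripts (GRCm38) on the transcript strand, and are written as DNA, 5′ to 3′, with the 6-base loop of the form CAGTGN in capitals. The pattern of 27 bases holds a lower stem of 5 bases, a bulged C, an upper stem in which 5 of 5 positions pair (G-T pairs allowed), the loop, and the closing strand. At least 3 of the 5 lower stem positions had to pair.
Tfrc 3′ UTR, chr16:32631220-32631246, plus strand: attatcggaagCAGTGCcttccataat
Tfrc 3′ UTR, chr16:32631599-32631625, plus strand: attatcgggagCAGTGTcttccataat
Tfrc 3′ UTR, chr16:32631664-32631690, plus strand: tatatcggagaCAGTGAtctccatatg
Tfrc 3′ UTR, chr16:32631711-32631737, plus strand: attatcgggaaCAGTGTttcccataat
Fth1 5′ UTR, chr19:9982733-9982759, plus strand: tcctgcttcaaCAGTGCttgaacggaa
Ftl1 5′ UTR, chr7:45459780-45459806, minus strand: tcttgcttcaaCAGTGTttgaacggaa
Slc40a1 5′ UTR, chr1:45925466-45925492, minus strand: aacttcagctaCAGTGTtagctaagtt
Slc11a2 3′ UTR, chr15:100395153-100395180, minus strand: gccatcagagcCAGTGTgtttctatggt

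The Slc11a2 element has 1 more base, 28 in all, because the 3′ side of its upper stem carries an unpaired base. It lies in 1 of the 2 coding transcripts of Slc11a2, and the Tfrc elements also lie in 1 of 2. The Fth1 element is in all 3 coding transcripts of its gene, that of Ftl1 in 1 of 2, and that of Slc40a1 in its only one. Among 21899 protein-coding genes the 27-base pattern was found in a 5′ UTR of 7 genes (0.032%) and in a 3′ UTR of 35 genes (0.16%). The 28-base form was found in a 3′ UTR of 67 genes (0.306%). The 27-base pattern also occurred in the coding sequence of 50 genes (0.228%). Aco1, Ireb2, Hmox1, Steap3 and Ncoa4 had neither form in a UTR of the annotated transcripts. A match to these letters is a description of the sequence and was not tested for binding.

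Of the 10 iron genes, Tfrc and Aco1 were lower in Bnc1tr/tr ovaries than in WT ovaries, none was higher, and 8 did not pass the test (edgeR quasi-likelihood test, Benjamini-Hochberg adjusted p under 0.05). None was higher at an unadjusted p under 0.05 or with DESeq2 either, which called 3 of the 10 lower. Over all genes tested edgeR called 7.06%, 4.19% lower and 2.88% higher, and DESeq2 called 1340 of the 19423 lower and 1080 higher. Expression did not overlap between the genotypes for 3 of the 10 genes, Tfrc, Aco1 and Hmox1, beside 30.8% of all genes tested. All 3 were below WT in every Bnc1tr/tr ovary, as were 15.8% of all genes. The median log2 fold change of the 10 genes was -0.044 and that of all genes tested was 0.018. Expression is given as CPM, the counts of a gene per 1000000 counts of its library after TMM normalization, which corrects for differences in the make-up of the libraries. The 10 genes took between 0.225% and 0.283% of the counts of an ovary, with the highest and the lowest share both in Bnc1tr/tr ovaries.

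**Figure D1:**
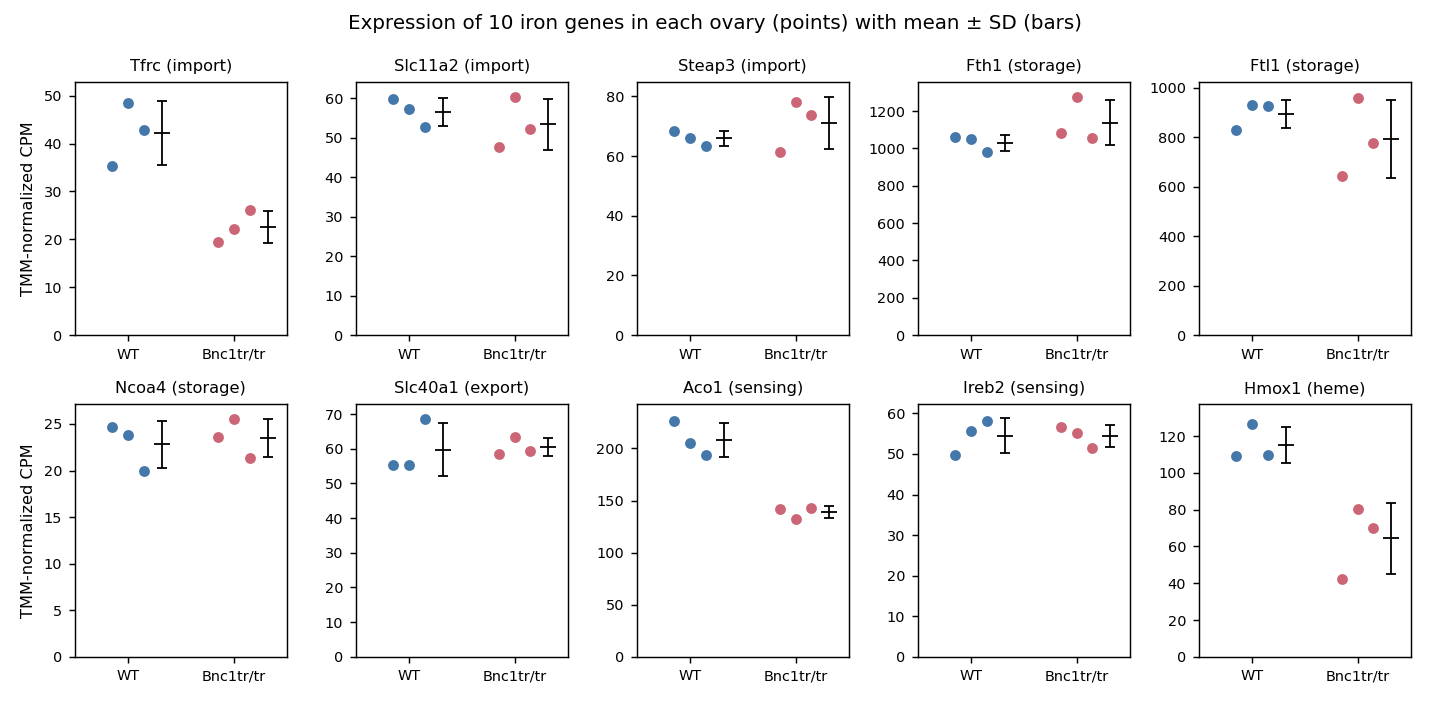
TMM-normalized CPM of the 10 iron genes, with 1 panel per gene and a vertical axis from 0. Points are ovaries (WT replicates 1, 4 and 7 in blue, Bnc1tr/tr replicates 1, 2 and 3 in red, left to right), and the bars beside them give the mean ± SD of 3 ovaries. Tfrc, Aco1 and Hmox1 separate the genotypes, and the points of the other 7 genes overlap.

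The sequencing totals were 28123709 to 34406296 counts in WT and 25247770 to 27315341 in Bnc1tr/tr ovaries. Markers of the oocyte (763 to 1381 CPM summed over 13 genes) and of the granulosa cell (3670 to 6270 CPM over 12 genes) were present in every library. Some libraries stood apart in tissue that lies next to the ovary. Summed over 10 markers of oviduct epithelium, WT replicate 1 had 152 CPM and Bnc1tr/tr replicate 3 had 536 CPM, where the other 4 ovaries had 20.1 to 35.8 CPM. Adipocyte markers (7 genes) ranged from 17.0 to 430 CPM and were highest in Bnc1tr/tr replicates 1 and 2. Bnc1 itself had 375, 444 and 381 counts in WT and 527, 355 and 326 in Bnc1tr/tr ovaries (log2 fold change 0.12, adjusted p = 0.733 by edgeR), and a count per gene does not show the deletion.

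The largest difference among the importers was that of Tfrc (chr16:32608920-32632794, plus strand), the receptor that takes up iron-loaded transferrin. In WT ovaries its expression was 35.4, 48.5 and 42.8 CPM in replicates 1, 4 and 7, and in Bnc1tr/tr ovaries it was 19.5, 22.1 and 26.1 CPM in replicates 1, 2 and 3. The highest Bnc1tr/tr ovary was thus below the lowest WT ovary. These levels rest on 951 to 1605 reads in WT and 548 to 740 reads in Bnc1tr/tr ovaries. The mean was 42.2 ± 6.59 CPM (SD, n = 3) in WT and 22.6 ± 3.32 CPM (SD, n = 3) in Bnc1tr/tr ovaries, a fall of 46.6% in the fitted level. The log2 fold change was -0.90 (SE 0.15, 95% confidence interval -1.25 to -0.56) with an adjusted p of 0.0147 by edgeR's quasi-likelihood test, at rank 472 of 19423 genes. The call was lost when WT replicate 4 or WT replicate 7 was left out (adjusted p = 0.0777 and 0.0607), with log2 fold changes of -0.80 and -0.90, and it held without the 2 ovaries highest in oviduct markers (log2 fold change -1.14, adjusted p = 0.0280). The paper reported the other direction, higher Tfrc mRNA and TFRC protein, in oocytes of younger Bnc1tr/tr mice, and also cited staining of ovaries. Oocytes and whole ovary are different material, and the reason for the difference was not tested.

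Slc11a2 (chr15:100387898-100425072, minus strand), which carries ferrous iron across the endosomal membrane, had 59.7, 57.3 and 52.7 CPM in WT and 47.6, 60.3 and 52.2 CPM in Bnc1tr/tr ovaries. The Bnc1tr/tr ovaries held both the highest and the lowest value. The log2 fold change was -0.084 (95% confidence interval -0.33 to 0.16, adjusted p = 0.677 by edgeR). Steap3 (chr1:120190757-120272705, minus strand), the reductase that precedes it, had 68.5, 66.0 and 63.4 CPM in WT and 61.4, 78.1 and 73.7 CPM in Bnc1tr/tr ovaries. Its replicate 1 of Bnc1tr/tr lay below every WT ovary and the other two lay above, and the log2 fold change was 0.11 (95% confidence interval -0.13 to 0.35, adjusted p = 0.576 by edgeR). Of the 3 importers, therefore, Tfrc passed the test and the intervals of Slc11a2 and Steap3 included 0.

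Neither ferritin subunit passed the test. Fth1 (chr19:9980598-9985098, plus strand), the heavy subunit that oxidizes ferrous iron for storage, had 1059, 1048 and 980 CPM in WT and 1082, 1274 and 1056 CPM in Bnc1tr/tr ovaries, with replicate 2 of Bnc1tr/tr above the rest. Its log2 fold change was 0.14 (95% confidence interval -0.096 to 0.38, adjusted p = 0.440 by edgeR). Ftl1 (chr7:45457944-45459884, minus strand), the light subunit that helps to form the iron core, had 830, 929 and 925 CPM in WT and 644, 957 and 778 CPM in Bnc1tr/tr ovaries. Its values spread more widely in Bnc1tr/tr than in WT ovaries (SD 157 and 56.1 CPM, n = 3 each), and the log2 fold change was -0.17 (95% confidence interval -0.51 to 0.17, adjusted p = 0.514 by edgeR).

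Ferritin genes have close copies in the genome, and the counting could divide reads between them or leave shared reads out. How such reads were counted is not known, so the size of this uncertainty is not known either. Ftl2, a near copy of Ftl1, held 1007, 1700 and 1252 counts in WT and 891, 993 and 810 in Bnc1tr/tr ovaries, beside 18105 to 30753 counts of Ftl1. Its log2 fold change was -0.42 with an adjusted p of 0.134 by edgeR. The pseudogenes Fth-ps2 and Fth-ps3 held 3 to 7 and 16 to 39 counts per ovary, beside 28424 to 34692 counts of Fth1, and Fthl17 and mitochondrial ferritin Ftmt were listed at 0 in all 6 ovaries.

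Ncoa4 (chr14:32159865-32179855, plus strand), the receptor that delivers ferritin to the lysosome for breakdown, had 24.7, 23.8 and 20.0 CPM in WT and 23.7, 25.5 and 21.4 CPM in Bnc1tr/tr ovaries. The ranges nearly coincided, and the log2 fold change was 0.041 (95% confidence interval -0.23 to 0.31, adjusted p = 0.864 by edgeR). The exporter gene Slc40a1 (chr1:45908068-45926523, minus strand) had 55.2, 55.3 and 68.6 CPM in WT and 58.6, 63.5 and 59.3 CPM in Bnc1tr/tr ovaries. All Bnc1tr/tr values lay within the WT range, and the log2 fold change was 0.018 (95% confidence interval -0.23 to 0.26, adjusted p = 0.936 by edgeR).

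The genes of the 2 iron regulatory proteins differed from each other. Aco1 (chr4:40143081-40198338, plus strand) encodes a protein that is an aconitase while it holds an iron-sulfur cluster and IRP1 when it does not. It had 226, 205 and 194 CPM in WT and 142, 132 and 143 CPM in Bnc1tr/tr ovaries. Every Bnc1tr/tr ovary lay well below the lowest WT ovary, and the spread was small in both genotypes (208 ± 16.5 CPM in WT and 139 ± 5.88 CPM in Bnc1tr/tr, SD, n = 3 each). The level fell by 33.3%, a log2 fold change of -0.58 (SE 0.088, 95% confidence interval -0.79 to -0.38, adjusted p = 0.0100 by edgeR, rank 369). The call was lost without WT replicate 4 (log2 fold change -0.60, adjusted p = 0.0560) and without the 2 ovaries highest in oviduct markers (-0.55, adjusted p = 0.104), while the fold change moved little. Ireb2 (chr9:54863789-54912530, plus strand), which encodes IRP2, a protein degraded when iron is plentiful, had 49.7, 55.7 and 58.1 CPM in WT and 56.7, 55.2 and 51.4 CPM in Bnc1tr/tr ovaries. Its Bnc1tr/tr values lay inside the WT range, with a log2 fold change of -0.0030 (95% confidence interval -0.21 to 0.21, adjusted p = 0.987 by edgeR).

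Hmox1 (chr8:75093621-75100589, plus strand), the inducible heme oxygenase that splits heme into biliverdin, carbon monoxide and iron, had 109, 127 and 110 CPM in WT and 42.6, 80.2 and 70.2 CPM in Bnc1tr/tr ovaries. Every Bnc1tr/tr ovary was below every WT ovary, and replicate 1 of Bnc1tr/tr stood well below the other two. The means were 115 ± 9.93 and 64.3 ± 19.5 CPM (SD, n = 3 each), the log2 fold change was -0.84 (SE 0.21, 95% confidence interval -1.33 to -0.35), and the adjusted p was 0.0566 by edgeR, so the gene was not called. It passed the threshold in 4 of 14 alternative analyses, among them those without Bnc1tr/tr replicate 1 (log2 fold change -0.62, adjusted p = 0.0243) and without Bnc1tr/tr replicate 2 (-1.03, adjusted p = 0.0419).

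**Figure D2:**
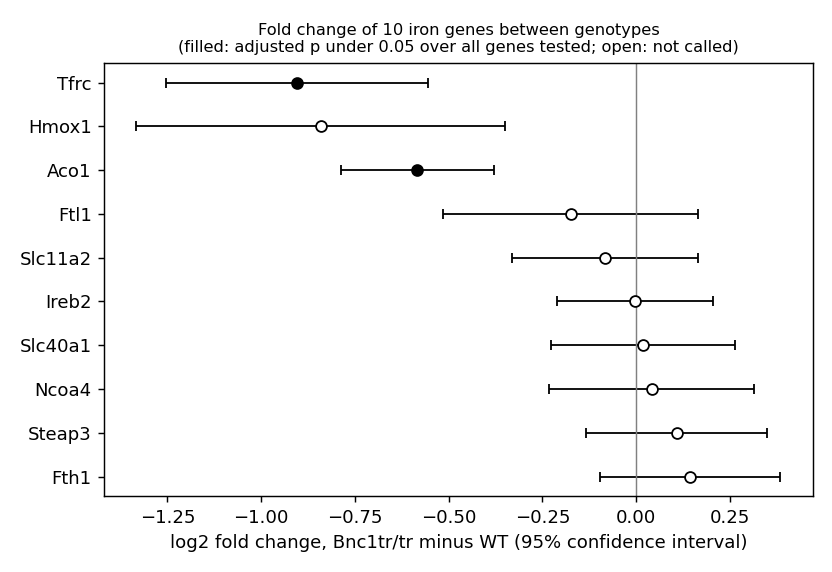
Log2 fold change (Bnc1tr/tr minus WT) of the 10 iron genes with its 95% confidence interval from the edgeR fit. Filled points are genes with an adjusted p under 0.05 over all 19423 genes tested. Tfrc (-0.90) and Aco1 (-0.58) are filled, Hmox1 (-0.84) has the widest interval, and the intervals of the other 7 genes include 0.

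Markers of the corpus luteum and of endothelial cells moved in the same direction as these 3 genes. In bulk tissue, fewer cells of a type and less RNA per cell cannot be told apart. Of 12 corpus luteum markers 9 were called lower and none higher, and their summed expression was 24550 to 28570 CPM in WT and 7662 to 13590 CPM in Bnc1tr/tr ovaries, without overlap. Of 7 endothelial markers 5 were called lower, and the sum was 600 to 797 CPM in WT and 397 to 443 CPM in Bnc1tr/tr ovaries, also without overlap. Their part in the results for Tfrc, Aco1 and Hmox1 was not tested.

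Macrophages recycle heme iron and erythrocytes carry most of the body's iron, so the markers of both were examined beside the members. The 13 macrophage markers summed to 623, 668 and 647 CPM in WT and 461, 844 and 482 CPM in Bnc1tr/tr ovaries. These ranges overlapped, none of the 12 markers tested was called by edgeR or by DESeq2 (1 lower at an unadjusted p under 0.05), and Vsig4 had at most 1 count per ovary. The erythrocyte markers (11 genes found) summed to 137, 126 and 206 CPM in WT and 228, 62.6 and 167 CPM in Bnc1tr/tr ovaries, and none of the 6 tested was called by edgeR or by DESeq2 (1 higher and 1 lower at an unadjusted p under 0.05). Hbb-b1, Hbb-b2 and Rhag were at 0 counts in every ovary and Slc4a1 had at most 1 count, so the sum came nearly all from the alpha globin genes and Hbb-bs and Hbb-bt. The sum of the theca cell markers overlapped between the genotypes, and none of the 6 was called by edgeR (2 higher and 1 lower at an unadjusted p under 0.05, and the same numbers by DESeq2). Of the other lists, 3 of 13 oocyte markers and 1 of 12 granulosa cell markers were called higher, and so were 1 of 8 oviduct and 1 of 7 adipocyte markers tested.

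**Figure D3:**
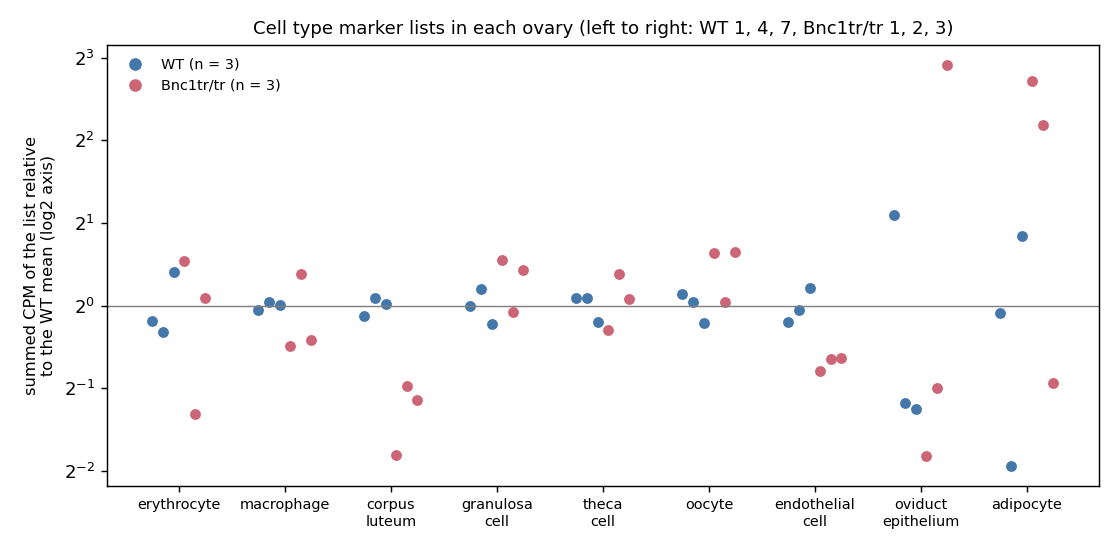
Summed CPM of each list of cell type markers in each ovary, divided by the mean of the WT ovaries, on a log2 axis (WT in blue, Bnc1tr/tr in red, n = 3 each, replicates left to right). The corpus luteum and endothelial lists separate the genotypes, while the macrophage and erythrocyte lists overlap and the oviduct list is high in WT replicate 1 and Bnc1tr/tr replicate 3.

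Ratios of 2 members within an ovary do not depend on how the libraries were scaled, and they were compared as a description with no test. For every 1000 reads of the heavy ferritin subunit Fth1 there were 33.4, 46.3 and 43.6 reads of Tfrc in WT and 18.0, 17.3 and 24.7 in Bnc1tr/tr ovaries. The ratio was lower in every Bnc1tr/tr ovary, with a mean difference of -1.04 on the log2 scale. The ratio of exporter to importer, Slc40a1 to Tfrc, was 1.56, 1.14 and 1.60 in WT and 3.01, 2.87 and 2.27 in Bnc1tr/tr ovaries, higher in all of the latter (log2 difference 0.93). Both of these ratios contain Tfrc and so are not independent of each other or of the result for Tfrc above.

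The ratio of heavy to light ferritin, Fth1 to Ftl1, was 1.28, 1.13 and 1.06 in WT and 1.68, 1.33 and 1.36 in Bnc1tr/tr ovaries. It was higher in every Bnc1tr/tr ovary (log2 difference 0.33), although neither subunit differed by the test and both had overlapping values, and the nearest values, 1.28 and 1.33, were close. Reads of the ferritin copies named above could enter either side of this ratio. The ratio of Aco1 to Ireb2 was 4.55, 3.68 and 3.33 in WT and 2.51, 2.40 and 2.78 in Bnc1tr/tr ovaries, a log2 difference of -0.58 with no overlap. Ireb2 itself had a log2 fold change of -0.0030, so this ratio largely repeats the result for Aco1.

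**Figure D4:**
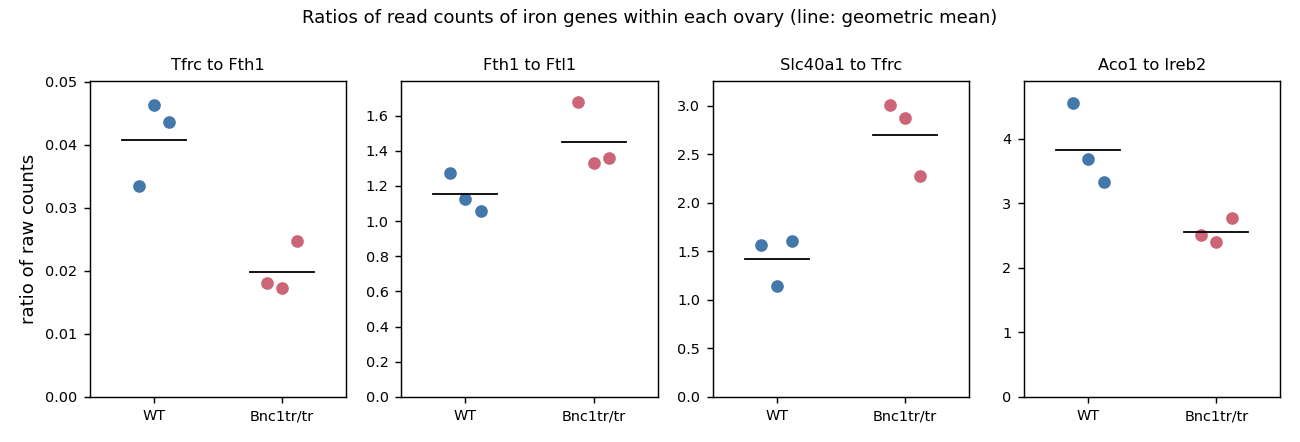
Ratios of raw read counts of 2 iron genes in each ovary (WT in blue, Bnc1tr/tr in red, n = 3 each, vertical axes from 0, lines at the geometric mean). Tfrc to Fth1 and Aco1 to Ireb2 are lower and Slc40a1 to Tfrc and Fth1 to Ftl1 are higher in every Bnc1tr/tr ovary than in every WT ovary. The share of other gene pairs whose ratios do not overlap was not computed.

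Levels of different genes were compared as CPM per kilobase of merged exons, with lengths from GENCODE M21. In WT ovaries the ferritin subunits came first, Ftl1 at 668 ± 41.9 and Fth1 at 297 ± 12.3 CPM per kilobase (SD, n = 3 here and below). Hmox1 followed at 65.8 ± 5.67 and Aco1 at 46.3 ± 3.67, and these first 4 genes did not overlap each other. Steap3 had 11.5 ± 0.454, Slc11a2 8.90 ± 0.563, Tfrc 6.82 ± 1.07, Slc40a1 6.63 ± 0.854, Ireb2 5.75 ± 0.458 and Ncoa4 2.44 ± 0.269 CPM per kilobase. Tfrc overlapped with Slc40a1 and Ireb2, the next genes in this order, so its place beside them cannot be told apart, whereas Steap3, Slc11a2 and Ncoa4 overlapped with no neighbour. In Bnc1tr/tr ovaries Ftl1 (592 ± 117) and Fth1 (328 ± 34.4) were again first. Hmox1 (36.7 ± 11.1) overlapped with Aco1 (30.9 ± 1.31) there, and Tfrc, at 3.65 ± 0.537 CPM per kilobase, moved from the seventh to the ninth place, above Ncoa4 alone. With the length of the longest transcript in place of merged exons, Slc40a1 took the fifth place in WT at 15.2 CPM per kilobase and Tfrc the ninth at 8.63, so the order of the lower genes depends on the lengths used.

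The genes with the 27-base pattern in a UTR, members included, did not share 1 direction, and a match to the pattern was not tested for binding. Of the 6 tested genes with the pattern in a 5′ UTR, Fth1, Ftl1, Slc40a1, Alas2 and Serpina3g were not called. The remaining gene, Ppp1r1b, which encodes the phosphatase inhibitor DARPP-32, had 1.97, 1.39 and 1.17 CPM in WT and 3.52, 4.89 and 9.87 CPM in Bnc1tr/tr ovaries and was higher (log2 fold change 2.02, adjusted p = 0.0316 by edgeR). With the pattern in a 3′ UTR, 29 genes were tested, 3 of them were called lower and none higher, and the median log2 fold change was -0.019. The 3 were Tfrc, Trim35, a tripartite motif protein (-0.35, adjusted p = 0.0460), and Wdr1, which promotes the disassembly of actin filaments (-0.46, adjusted p = 0.0186). These genes were named after their values were seen. The share of the 29 that was called was 10.3%, beside 7.06% of all genes tested, and it counts the member Tfrc again. The share of the 6 was 16.7%, and these 6 include the members Fth1, Ftl1 and Slc40a1.

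The wider pathway was described by 85 other genes in 8 lists by role, of which 7 lists hold genes of iron and heme handling and the last holds 10 targets of NRF2 outside iron handling. Of the 83 tested, 1 was called higher and 3 lower (4.82%, beside 7.06% of all genes), and their median log2 fold change was -0.0081. The number rose to 12 higher and 16 lower at an unadjusted p under 0.05, beside 2306 higher and 2392 lower of all 19423 genes tested. DESeq2 called 6 higher and 11 lower, beside 1080 higher and 1340 lower of all genes. By both of these counts the share of the lists was above that of all genes, unlike the share called by edgeR.

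The called genes of the hepcidin axis were Bmp6 and Tmprss6. Bmp6, the ligand that raises hepcidin in the liver and a growth factor of the oocyte in the ovary, had 18.3, 18.8 and 20.4 CPM in WT and 43.4, 34.5 and 27.8 CPM in Bnc1tr/tr ovaries. Every Bnc1tr/tr ovary was above WT, and the log2 fold change was 0.88 (SE 0.16, adjusted p = 0.0203 by edgeR). Tmprss6, the protease that restrains hepcidin signalling by cleaving hemojuvelin, had 7.29, 9.67 and 6.76 CPM in WT and 1.57, 3.62 and 3.38 CPM in Bnc1tr/tr ovaries. It was lower in every Bnc1tr/tr ovary (log2 fold change -1.47, SE 0.32, adjusted p = 0.0367 by edgeR). Hamp, the hepcidin gene itself, had 1, 1 and 2 counts in WT and 4, 1 and 2 in Bnc1tr/tr ovaries and was not tested. These were the calls among 9 tested genes of export and the hepcidin axis (22.2%, beside 7.06% of all genes). The calls of both were lost when any 1 WT ovary was left out (lowest adjusted p by edgeR 0.0672 for Bmp6 and 0.0787 for Tmprss6). That of Tmprss6 was also lost without Bnc1tr/tr replicate 3 (0.0721) and without the oviduct-rich pair (0.131). The log2 fold changes stayed between 0.70 and 1.02 for Bmp6 and between -1.68 and -1.18 for Tmprss6 with any 1 ovary left out.

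The ferroxidases that load exported iron onto transferrin were not called. Cp had 27.6, 22.4 and 17.8 CPM in WT and 16.4, 29.1 and 21.3 CPM in Bnc1tr/tr ovaries (log2 fold change -0.022, adjusted p = 0.966 by edgeR). Heph had 104, 136 and 150 CPM in WT and 302, 113 and 130 CPM in Bnc1tr/tr ovaries. The log2 fold change of 0.48 (adjusted p = 0.454 by edgeR) rested on Bnc1tr/tr replicate 1 and was -0.10 without it.

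None of 13 uptake genes was called by edgeR, 3 were higher and 3 lower at an unadjusted p under 0.05, and DESeq2 called 2 in each direction. Their median log2 fold change was 0.20. Trf, the transferrin that Tfrc binds, had 154, 79.3 and 93.5 CPM in WT and 123, 403 and 204 CPM in Bnc1tr/tr ovaries. The values overlapped, with replicate 2 of Bnc1tr/tr far above the rest, and the log2 fold change of 1.16 (SE 0.43, adjusted p = 0.148 by edgeR) was 0.58 without that ovary. Among the 4 tested storage and chaperone genes, Pcbp4 was lower (25% called, beside 7.06% of all genes). It belongs to the poly(rC)-binding proteins, whose members Pcbp1 and Pcbp2 hand iron to ferritin. Pcbp4 had 35.3, 38.1 and 39.1 CPM in WT and 25.8, 30.1 and 25.1 CPM in Bnc1tr/tr ovaries, without overlap (log2 fold change -0.47, SE 0.10, adjusted p = 0.0338 by edgeR). It stayed past the threshold in 7 of 14 alternative analyses and, of the 6 that left out an ovary, in that without Bnc1tr/tr replicate 2 (adjusted p = 0.0265) but not in the others, with log2 fold changes of -0.56 to -0.42.

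The list of sensing held 3 subunits of the ligase that acts on IRP2 and 3 regulators of the oxidant response that also act on Hmox1. Of these 6 genes none was called by edgeR or DESeq2 and none had an unadjusted p under 0.05, and the median log2 fold change was -0.0069. Fbxl5, the ubiquitin ligase subunit that marks IRP2 for breakdown, had a mean of 63.7 CPM in WT and 61.3 CPM in Bnc1tr/tr ovaries (log2 fold change -0.056, adjusted p = 0.686 by edgeR). Nfe2l2 encodes NRF2, an activator of Hmox1, and had 174 and 171 CPM (log2 fold change -0.024, adjusted p = 0.913 by edgeR). Nor was any of 10 other NRF2 targets called by edgeR, with a median of -0.044. At an unadjusted p under 0.05, 2 of them were higher and 1 lower, and DESeq2 called 1 higher.

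In the list of mitochondrial iron and iron-sulfur cluster assembly 15 of 20 fold changes were negative, and the median was -0.13. In 7 of the 20 every Bnc1tr/tr ovary was below every WT ovary (35% beside 15.8% of all genes), and 1 gene was called. DESeq2 called 6 of the 20 lower and none higher, beside 1340 lower and 1080 higher of all 19423 genes tested. At an unadjusted p under 0.05, 6 of the 20 were lower and none higher, beside 2392 lower and 2306 higher of all genes. The gene called by edgeR was Isca2, which helps to build the cluster that mitochondrial aconitase and related enzymes hold, with 31.6, 32.5 and 30.7 CPM in WT and 18.9, 23.7 and 24.4 CPM in Bnc1tr/tr ovaries (log2 fold change -0.50, SE 0.11, adjusted p = 0.0423 by edgeR). It stayed past the threshold in 6 of 14 alternative analyses and in none that left out an ovary, while its log2 fold change there stayed between -0.57 and -0.39. The list also contains Fdxr and Fdx1, which pass electrons to the steroid enzyme Cyp11a1, a corpus luteum marker used above. Chosen after its values were seen, Fdxr had a mean of 1006 ± 48.9 CPM in WT and 537 ± 172 CPM in Bnc1tr/tr ovaries (SD, n = 3 each, log2 fold change -0.90, adjusted p = 0.0509 by edgeR), and Fdx1, also a theca cell marker, had a log2 fold change of -0.93 with an adjusted p of 0.132.

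Heme synthesis had no call by edgeR among 9 genes, 7 negative fold changes and a median of -0.15. In 4 of the 9 every Bnc1tr/tr ovary was below every WT ovary (44.4% beside 15.8% of all genes). At an unadjusted p under 0.05, 3 of the 9 were lower and none higher, and DESeq2 called 1 lower. Alas1, the first enzyme of the pathway outside the red cell lineage, had 178 ± 27.5 CPM in WT and 137 ± 49.8 CPM in Bnc1tr/tr ovaries (SD, n = 3 each, log2 fold change -0.38, adjusted p = 0.424 by edgeR). Of 12 genes for heme transport and breakdown none was called by edgeR, 3 were higher and 1 lower at an unadjusted p under 0.05, DESeq2 called 1 higher, and the median was 0.044. Hmox2, the constitutive heme oxygenase, had 79.0 ± 3.79 CPM in WT and 65.5 ± 9.48 CPM in Bnc1tr/tr ovaries (SD, n = 3 each). Every Bnc1tr/tr ovary lay below WT, but the nearest values, 76.17 CPM in Bnc1tr/tr and 76.22 CPM in WT, nearly coincided. The log2 fold change was smaller than that of Hmox1, at -0.27 (adjusted p = 0.195 by edgeR).

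**Figure D5:**
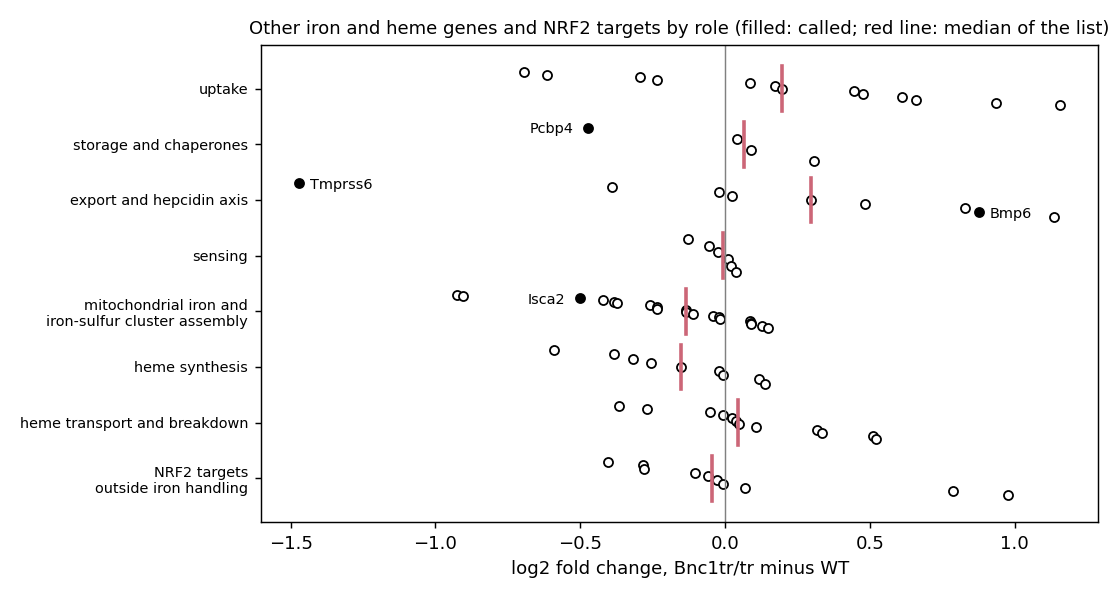
Log2 fold change (Bnc1tr/tr minus WT) of the 83 tested genes of the 8 role lists (the last of them NRF2 targets outside iron handling), with 1 point per gene, filled where the adjusted p was under 0.05 and named there, and a red line at the median of each list. The filled points are Pcbp4, Tmprss6, Bmp6 and Isca2, and the medians run from -0.15 for heme synthesis to 0.30 for export and the hepcidin axis.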

How the data were processed

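Total RNA of whole ovaries was extracted with TRIzol, and the authors made single-end libraries for the Ion Proton sequencer. The deposited counts are whole numbers of reads per gene symbol and ovary, without normalization. The submitters' processing notes name the genome builds mm10 and Sscrofa10.2, the second a pig assembly whose role is not given, and the aligner, counter, annotation and use of strand are not given in the sources used here. How reads that match several genes or antisense genes were counted is therefore not known.

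Of 31717 genes with a count, those passing edgeR's filterByExpr (minimum count 10) were scaled to counts per total (CPM) with TMM factors of 0.958 to 1.04 and compared between genotypes with the quasi-likelihood test (edgeR 4.0.16, R 4.3.3), two-sided, Benjamini-Hochberg adjusted over all genes tested, with a threshold of 0.05. The totals per ovary are given above, and the biological coefficient of variation was 0.186. No 2 ovaries of a genotype had counts close enough to be the same library (chi-square per degree of freedom 15.6 to 58.5). Standard errors were derived from the F statistic. Groups were taken from the sample labels. Alternatives were DESeq2 1.42.0, limma-voom (limma 3.58.1), other scalings and filters, a robust fit, unadjusted p and leaving out each ovary, and leaving out the 2 ovaries highest in oviduct markers was added after seeing the data. The procedure was tested on simulated counts. Gene positions, exon lengths and transcripts were those of GRCm38 with GENCODE M21, and older symbols were matched through RefSeq synonyms (Ahsp was not found).

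The members and lists were chosen with earlier results of these data known. Named were all 10 members, every called gene of the role lists, and Trf, Cp, Heph, Hamp, Fbxl5, Nfe2l2, Hmox2 and Alas1 whatever their result, with other genes marked where named. A gene at 3 counts or fewer was treated as at the floor.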

Additional observations from a re-analysis of the deposited data

How the results depend on the processing

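Tfrc and Aco1 kept their direction in all 14 alternatives and stayed past the threshold in 12 each. Without any 1 ovary the log2 fold change of Tfrc ran from -1.03 to -0.80 and that of Aco1 from -0.64 to -0.53, and Aco1 was -0.55 without the 2 ovaries highest in oviduct markers, not past the threshold. Hmox1 passed it without the filter on low counts (-0.84, adjusted p = 0.0264, edgeR) and with DESeq2 (-0.84, adjusted p = 0.00168), and ran from -1.03 to -0.62 over the 6 fits that left out an ovary. The number of members called lower was 1 without those 2 oviduct-rich ovaries and 0 to 3 with 1 ovary left out, the 0 without WT replicate 4 and 1 without WT replicate 7. No alternative called a member higher. The cause of these changes was not tested, and the fits that left out ovaries also had fewer samples.

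Fold changes near 0 changed sign. With library size only, Slc11a2 was 0.016, Ireb2 0.096, Cp 0.079, Fbxl5 0.044 and Nfe2l2 0.076, and without the oviduct-rich ovaries Slc40a1 was -0.029 and Cp 0.17. Leaving out 1 ovary gave -0.043 to 0.12 for Slc40a1, -0.075 to 0.037 for Ireb2, -0.055 to 0.11 for Ncoa4, -0.26 to 0.16 for Cp, -0.10 to 0.73 for Heph and -0.099 to 0.059 for Nfe2l2. Per kilobase of the longest transcript the WT levels were 924 (Ftl1), 499 (Fth1), 73.4 (Hmox1), 54.4 (Aco1), 15.2 (Slc40a1), 12.8 (Slc11a2 and Steap3), 9.45 (Ireb2), 8.63 (Tfrc) and 4.82 (Ncoa4) CPM, because the shorter length raises each value.

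Of the 85 genes of the role lists, which include 10 NRF2 targets outside iron handling, 3 were called higher and 1 lower with library size only, 6 were lower without the filter, 6 higher and 11 lower with DESeq2, 12 higher and 16 lower at an unadjusted p, 1 lower without the oviduct-rich ovaries, and 0 to 3 higher and 0 to 4 lower with 1 ovary left out. Over all genes the calls were 559 higher and 813 lower. They were 1112 higher and 616 lower with library size only (35.6% of calls lower instead of 59.3%, with the median log2 fold change of all genes at 0.12), 1080 and 1340 with DESeq2, 2306 and 2392 at an unadjusted p, 72 and 232 without the oviduct-rich ovaries, and 94 to 620 higher and 226 to 662 lower with 1 ovary left out, fewest without WT replicate 4. No paired analysis was possible because the labels tie no ovary to a litter, although the methods speak of littermates, and the genotypes share only replicate number 1.

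The limits are 3 ovaries per genotype, for which an exact permutation test cannot go below p = 0.1, whole tissue in which cell types are mixed, and mRNA counts, which do not show protein, iron or translation controlled by the iron-responsive elements.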
